A study of Homo sapiens with 6 samples.

Results

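To see how the Wnt and β-catenin pathway stood in hepatoma cells that carried extra hsa_circ_0098181, 10 genes were read from a table of 50868 genes. They were chosen by gene symbol: the transcriptional effector CTNNB1, the scaffold and inhibitor genes AXIN1, AXIN2, APC and NKD1, the R-spondin receptors LGR4 and LGR5, the ubiquitin ligases RNF43 and ZNRF3, and the liver target GLUL. Total RNA of Huh7, an established human hepatoma cell line, was sequenced 48 h after Lipofectamine transfection. 3 libraries came from cells given a plasmid that overexpresses hsa_circ_0098181, a circular RNA (a closed loop of joined exons) from the SOX5 gene, and 3 from cells given the control plasmid. No other agent or allele was named for either group, and nothing in the labels said that replicates were separate cultures, so p-values measure the spread between these libraries only. The libraries were made from bulk cells, in which fewer cells with a transcript and less of it per cell cannot be told apart. Library totals ran from 11130902 to 14138262 gene counts, and SOX5 at 1905 to 2396 CPM (a gene's reads scaled to a common library size) with overexpression against 31.3 to 41.8 in control matched the labels. A sum of 11 hepatoma markers, including AFP and ALB, held 33183 to 35581 CPM with overexpression and 32290 to 37907 in control.

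Wnt proteins bind a Frizzled receptor together with LRP5 or LRP6. Without a Wnt, a destruction complex built on AXIN1 or AXIN2 and APC marks β-catenin, the product of CTNNB1, for degradation. With a Wnt, β-catenin builds up, enters the nucleus and switches on targets with TCF factors. The ligases RNF43 and ZNRF3 remove Frizzled from the cell surface, and R-spondins, held by LGR4 or LGR5, take these ligases away. AXIN2, RNF43, ZNRF3, LGR5 and NKD1 are themselves commonly induced by the pathway and feed back on it. In the liver the pathway keeps up the genes of hepatocytes around the central vein, of which GLUL, glutamine synthetase, is the best known. CTNNB1, AXIN1 and APC are recurrently mutated in liver or bowel tumours.

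The study examined the circle as a sponge for miR-18a-3p, so the 3′ untranslated regions (3′ UTRs) of the 10 genes were searched for the complement of this microRNA's seed, AGGGCAG, on the transcript strand, in the transcript with the longest coding sequence. The mature microRNA from RefSeq (GRCh38.p14, chr13:91350797-91350819, plus strand) is printed first, with the seed, bases 2 to 8, in capitals. The sites follow as 30-base windows of GENCODE 29 transcripts (GRCh38), 5′ to 3′ on the transcript, with the match in capitals. Shorter matches, other regions and other transcripts were not searched. The sites are shown because the microRNA's seed could pair with these transcripts there. All 3 lie in exons, in the 3′ UTR, in RNF43 on the minus strand at chr17:58354624-58354653 (site 1) and chr17:58353881-58353910 (site 2), and in NKD1 on the plus strand at chr16:50641717-50641746.
miR-18a-3p: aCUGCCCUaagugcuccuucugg
RNF43 site 1: ctgagtttttgAGGGCAGaaagctagctat
RNF43 site 2: acattcaccccAGGGCAGcctgaccactct
NKD1 site: aaaacctgttcAGGGCAGagcgttagacag

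These letters were found in 2 of the 10 genes, against 14.7% of 19409 coding genes searched in the same way. The 3′ UTRs searched had 561 (CTNNB1) to 15468 bases (NKD1) in the 10, beside a median of 751 over the coding genes. The shares were not adjusted for length. LGR4, the gene with the largest difference below, held none in the transcript searched. The NKD1 site lies past the end of NKD1 in the deposited table, at 50640739, so it is outside the gene as counted there. A match is a description of the letters and not a bound site.

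All 10 genes passed the filter on low counts. With edgeR's quasi-likelihood test, 0 of 10 were higher and 0 of 10 lower at an adjusted p under 0.05, where 4 of 15055 genes tested (0.0266%) were higher and 2 (0.0133%) lower. 1 of the 10, LGR4, had an unadjusted p under 0.05, against 5.50% of all genes tested. The median log2 fold change of the 10 was 0.041, with 6 above 0 and 4 below, beside 0.0023 over all genes tested. LGR4 was also the 1 gene whose groups did not overlap in CPM, with overexpression higher. Over all genes 6.40% did not overlap with overexpression higher, and 6.50% with overexpression lower. DESeq2 likewise called 0 of 10, where it called 8 of all genes higher and 20 lower.

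**Figure D1:**
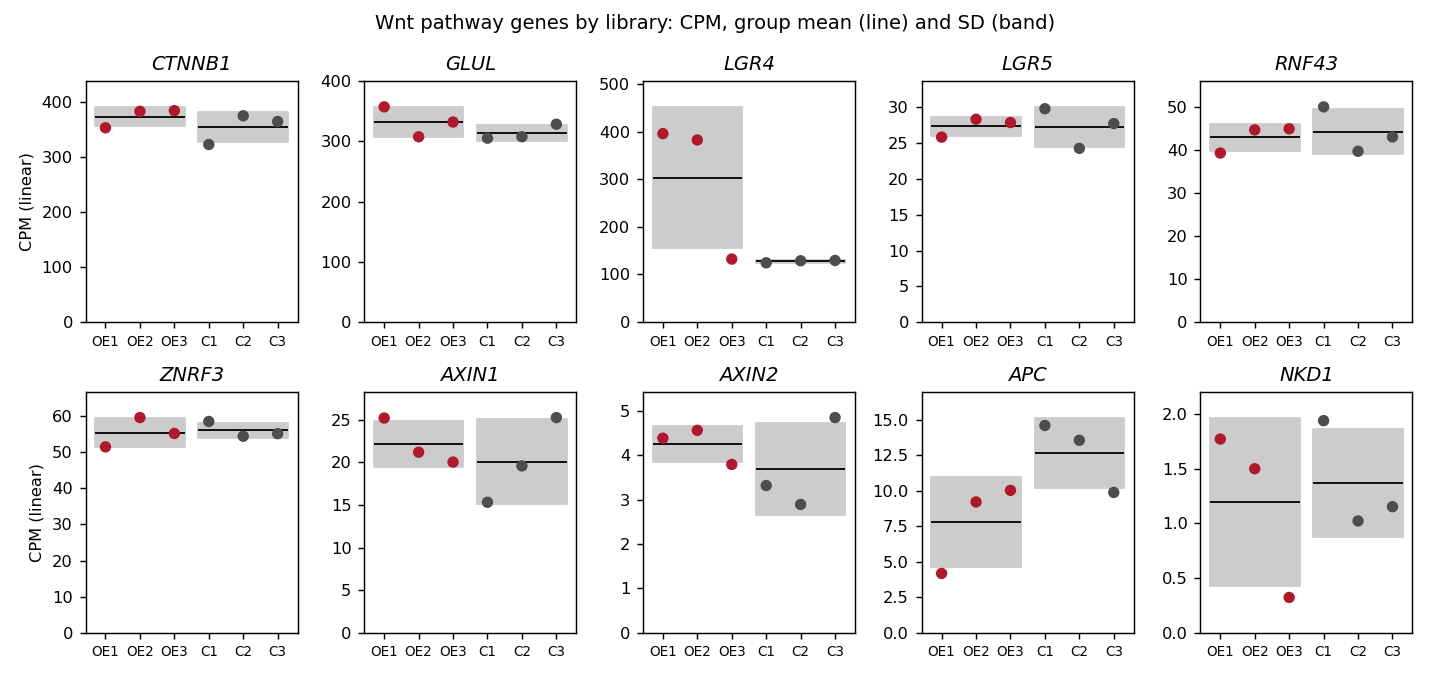
Level of each of the 10 genes in CPM on a linear axis from 0, for overexpression (OE, red) and control (C, grey) replicates 1 to 3, with the group mean as a line and the SD as a band. LGR4 stood near 390 CPM in OE1 and OE2 and between 124 and 132 CPM in the other 4 libraries, while the groups of the remaining 9 genes overlapped.

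LGR4, the receptor that holds R-spondins on most epithelial cells, was about 3 times as high in overexpression replicates 1 and 2 as in the rest. It held 396, 383 and 132 CPM in overexpression replicates 1, 2 and 3, and 125, 129 and 129 CPM in control replicates 1, 2 and 3. Overexpression replicate 3 thus read like a control library, and the groups were separated by less than 3 CPM. The means were 304 ± 148 CPM with overexpression and 128 ± 2.70 in control (SD, n = 3). On the log2 scale the fitted difference was 1.25 (standard error 0.35), or 2.38-fold with a 95% interval of 1.37 to 4.13 (edgeR unadjusted p 0.0065, adjusted p 0.797). An exact permutation test of 3 against 3 libraries gave a two-sided p of 0.1, the smallest that it can give. LGR4 passed the test once overexpression replicate 3 was left out, at 1.61 on the log2 scale (edgeR adjusted p 0.00217). It was 1.01 or 1.05 and did not pass when overexpression replicate 1 or 2 was left out instead.

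The jump was in the counts themselves, at 5590, 5360 and 1638 with overexpression and 1349, 1513 and 1573 in control. Of 9953 genes with a mean of at least 10 CPM over the 6 libraries, 270 (2.71%) had a range of 2-fold or more among the overexpression libraries. Among the control libraries 338 (3.40%) had such a range. For LGR4 the highest overexpression library was 2.99 times the lowest, a ratio that 88 of the 9953 genes (0.884%) reached, and 1.04 times in control. LGR4 was the 1 gene of 9953 in which both overexpression replicates 1 and 2 were at least 2-fold above each of the other 4 libraries, a pattern defined after its values were seen. SOX5 did not follow that pattern, with 1905, 2396 and 2012 CPM in overexpression replicates 1, 2 and 3. Overexpression replicates 1 and 2 were the deepest libraries, with 14138262 and 13855167 counts against 12261725 in replicate 3, and the part of depth in the LGR4 result was not tested. The gene RP11-159H22.2, which overlaps LGR4 on the other strand, held 13 counts over the 6 libraries against 17023 for LGR4.

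LGR5, the R-spondin receptor known as a stem cell marker and as a pericentral gene of the liver, gave no such split. It held 25.8, 28.3 and 27.9 CPM with overexpression and 29.8, 24.3 and 27.7 in control, so the groups overlapped throughout. The means were 27.3 ± 1.33 and 27.3 ± 2.80 CPM (SD, n = 3), and the 95% interval of the fold change was 0.835 to 1.21 (edgeR adjusted p 0.995). LGR5 overlaps TSPAN8 on the other strand, which held 3826 counts over the 6 libraries against 2052 for LGR5, and since the handling of strand was not given, reads in the shared stretch cannot be assigned. The third receptor of the family, LGR6, and the R-spondins RSPO1, RSPO3 and RSPO4 had 0 counts in every library, and RSPO2 had 2 and 1 counts in 1 library of each group. A count of 0 allows up to 0.212 to 0.277 CPM in these libraries (3 counts, counting error only).

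RNF43 and ZNRF3, the membrane ligases that R-spondins and LGR receptors remove, overlapped between groups as well. RNF43 stood at 39.4, 44.7 and 45.0 CPM with overexpression and at 50.1, 39.8 and 43.1 in control, with the highest and the second lowest value both in control. Its fold change had a 95% interval of 0.804 to 1.17 (edgeR adjusted p 0.945), and the 2 seed matches printed above went with no called difference. RNF43 overlaps SUPT4H1 on the same strand, which held 3553 counts over the 6 libraries against 3274, but the overlap ends at 58353093, outside both windows. ZNRF3 held 51.5, 59.6 and 55.2 CPM with overexpression and 58.5, 54.4 and 55.1 in control. Its fold change lay between 0.849 and 1.15 (95% interval, edgeR adjusted p 0.980), the closest bounds among the 4 receptor and ligase genes.

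APC, the large scaffold of the destruction complex, was the only one of the 10 with a fitted decrease beyond 0.2 on the log2 scale. It held 4.18, 9.21 and 10.0 CPM with overexpression and 14.6, 13.5 and 9.87 in control. Overexpression replicate 1 was the lowest library, and overexpression replicate 3 was above control replicate 3, so the groups overlapped. The means were 7.80 ± 3.16 and 12.7 ± 2.47 CPM (SD, n = 3), and the fitted difference on the log2 scale was -0.70 (standard error 0.31), with a 95% interval of -1.41 to 0.011. It did not pass (edgeR unadjusted p 0.053, adjusted p 0.797, exact permutation p 0.2). Leaving out overexpression replicate 1 brought it to -0.40. APC rested on 59 to 159 counts per library, and 22 of 9953 genes, APC among them, stood in overexpression replicate 1 at no more than 0.5 times the level of each other library.

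AXIN1, the scaffold that limits the amount of destruction complex, held 25.2, 21.2 and 20.04 CPM with overexpression and 15.3, 19.6 and 25.3 in control. The lowest and the highest library were both control, and the fold change had a 95% interval of 0.819 to 1.49 (edgeR adjusted p 0.878). AXIN2, its pathway-induced relative and the most widely used readout of β-catenin activity, was low, at 4.39, 4.57 and 3.80 CPM with overexpression and 3.32, 2.90 and 4.85 in control. These levels came from 34 to 64 counts per library, and control replicate 3 was the highest of the 6. Its fitted difference was 0.20 on the log2 scale, with 0.24 as its standard error (edgeR adjusted p 0.869), and the fold change could lie between 0.782 and 1.69 (95% interval). Leaving out control replicate 2 brought the difference to 0.052, and leaving out control replicate 3 to 0.45.

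CTNNB1 itself held 353, 383 and 384 CPM with overexpression and 323, 375 and 364 in control. The means of 373 ± 17.6 and 354 ± 27.6 CPM (SD, n = 3) differed by less than the spread among control libraries. The fold change was 1.05 with a 95% interval of 0.913 to 1.22 (edgeR adjusted p 0.866), among the narrowest of the 10. These are levels of the messenger RNA. β-catenin is mainly set by degradation of the protein, which was not measured in these libraries.

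2 members are read here as outputs. GLUL, which makes glutamine from ammonia and glutamate, held 357, 308 and 332 CPM with overexpression and 305, 308 and 329 in control. The groups overlapped, and the fold change lay between 0.920 and 1.22 (95% interval, edgeR adjusted p 0.853). 4 annotated GLUL pseudogenes in the table held 2 counts in all against 24392 for GLUL. NKD1, an inhibitor that binds Dishevelled and is induced by the pathway, was near the limit of detection, with 25, 21 and 4 counts with overexpression and 21, 12 and 14 in control. Its interval, 0.382 to 2.09 for the fold change, did not resolve a 2-fold difference in either direction, and no difference was detectable at this depth (edgeR adjusted p 0.956).

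**Figure D2:**
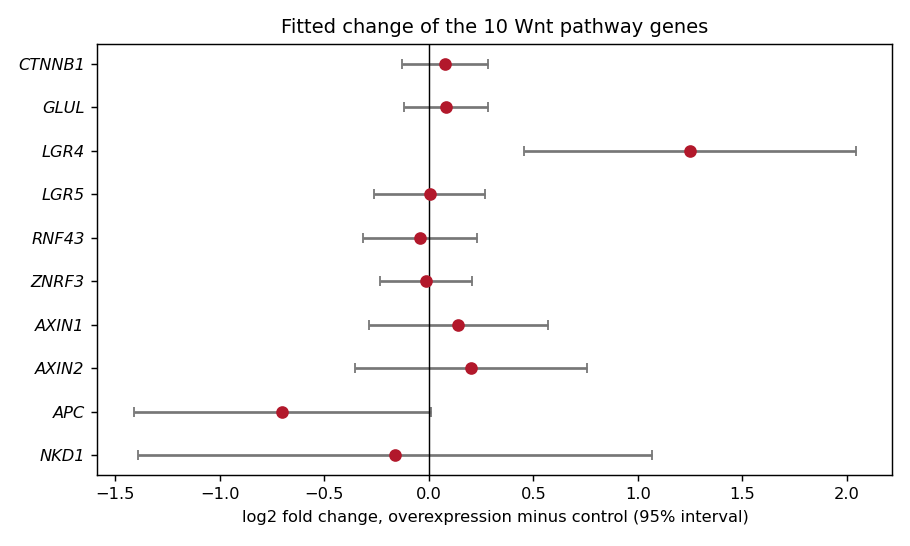
Fitted log2 fold change of the 10 genes, overexpression minus control (edgeR), with 95% intervals as bars. The interval of LGR4, from 0.46 to 2.05, is the one that lies wholly above 0, and those of APC and NKD1 are the other wide ones.

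Levels were compared between genes per length, in CPM per kilobase of merged exons of GENCODE 29, over the 3 control libraries. GLUL was highest at 34.8 ± 1.41, followed by CTNNB1 at 29.7 ± 2.31 and LGR4 at 20.1 ± 0.426 (SD, n = 3). A middle group held ZNRF3 at 8.04 ± 0.314, RNF43 at 5.91 ± 0.703 and LGR5 at 5.19 ± 0.533. AXIN1 at 2.68 ± 0.666, APC at 1.02 ± 0.199 and AXIN2 at 0.706 ± 0.197 were lower, and NKD1 was last at 0.0787 ± 0.0284. The exons of NKD1 in GENCODE 29 sum to 17425 bases, of which 8915 lie inside NKD1 as listed in the deposited table, and over these its level was 0.154 ± 0.0556, still below each control library of AXIN2. Per kilobase of merged exons the libraries of RNF43 and LGR5 overlapped, as did those of APC and AXIN2. With that length these neighbours in the order cannot be told apart by their spread. The order at the top depended on the length used. Per kilobase of the transcript with the longest coding sequence, CTNNB1 stood at 113 ± 8.83 and GLUL at 71.9 ± 2.92, because all annotated exons of CTNNB1 sum to 11927 bases and that transcript has 3127. With the transcript length the libraries of ZNRF3 and RNF43 overlapped, as did those of LGR5 and AXIN1, while those of RNF43 and LGR5 did not.

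**Figure D3:**
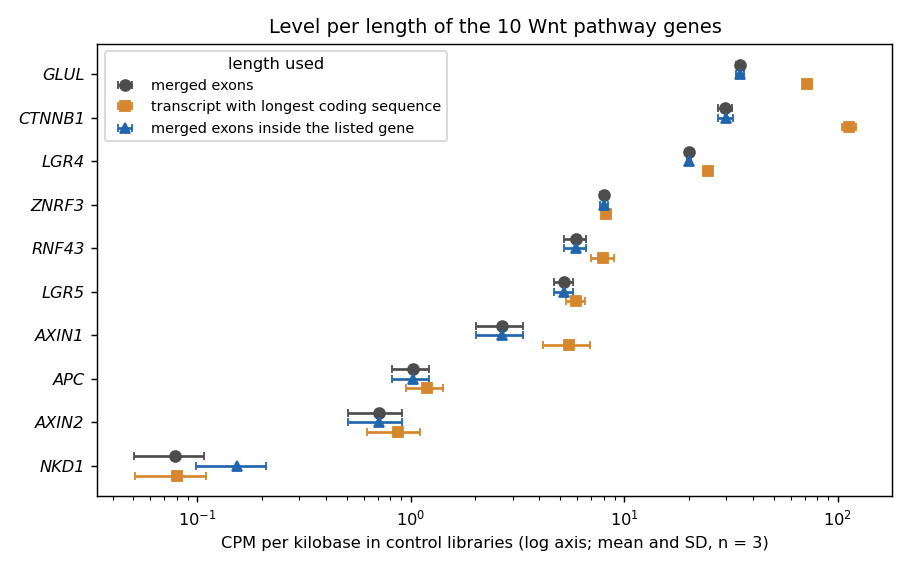
Level per length of the 10 genes in the 3 control libraries, in CPM per kilobase on a log axis, as mean and SD, with merged exons (circles), the transcript with the longest coding sequence (squares) or merged exons inside the gene as listed in the deposited table (triangles) as the length. The means of GLUL, CTNNB1 and LGR4 lie above 20 by every length, the first and second place swap with the squares, and NKD1 is last by every length, at 0.154 over the exons inside the listed gene.

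Beside the 10 genes, 107 other genes of the pathway and of liver zonation were read by role. Of these, 64 were tested, 22 had 0 counts in all 6 libraries, and none of the 64 passed the test with edgeR (0 higher, 0 lower, with 3 at an unadjusted p under 0.05), while DESeq2 called 0 higher and 1 lower. Their median log2 fold change was -0.013, with 28 above 0 and 36 below. Between groups, 2 of the 64 did not overlap with overexpression higher and 4 with overexpression lower, beside 6.40% and 6.50% of all genes tested, and the 3 at an unadjusted p under 0.05 stand beside 5.50%. In each list the 2 genes with the highest level and the gene with the lowest unadjusted p are named.

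Of 19 Wnt ligands, 10 had 0 counts in every library and 1, WNT3, was tested. WNT3 held 4.19 ± 0.511 CPM with overexpression and 4.81 ± 0.855 in control (SD, n = 3). PORCN, the enzyme that attaches the lipid to Wnt proteins, held 3.30 ± 0.488 and 4.08 ± 0.300 CPM, from 40 to 54 counts per library. Its groups did not overlap, with 3.82 CPM in the highest overexpression library and 3.88 in the lowest control library. It did not pass (edgeR unadjusted p 0.176, adjusted p 0.797). WLS, which carries Wnt proteins to the cell surface, held 23.7 ± 3.49 and 23.9 ± 6.17 CPM. Every Wnt ligand gene other than WNT3 was under the filter on low counts.

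11 of 12 Frizzled and LRP receptors were tested, with a median log2 fold change of -0.015 and 5 above 0. The coreceptor LRP5 held 405 ± 21.3 CPM with overexpression and 425 ± 26.0 in control, and LRP6 129 ± 11.2 and 146 ± 12.7 (SD, n = 3). FZD3, a Frizzled receptor, had the lowest p of the list, at 16.3 ± 1.92 and 19.4 ± 1.81 CPM (edgeR unadjusted p 0.096, adjusted p 0.797). Among 13 secreted and surface inhibitors, 4 were tested. DKK1, which blocks LRP6, held 88.9 ± 2.71 CPM and 84.2 ± 8.93, and DKK3, of the same family, 11.3 ± 2.06 and 11.7 ± 2.72. All 3 Dishevelled genes, the relays between Frizzled and the destruction complex, were tested, and DVL3 at 155 ± 10.5 and 167 ± 16.3 CPM and DVL2 at 51.6 ± 5.50 and 51.5 ± 4.48 overlapped between groups.

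Of 14 partners of the destruction complex, 13 were tested, with a median log2 fold change of -0.014. GSK3B, the kinase that phosphorylates β-catenin, held 111, 112 and 120 CPM with overexpression and 144, 120 and 135 in control. The groups did not overlap, by less than 1 CPM. The fitted difference, -0.22 on the log2 scale (standard error 0.095), did not pass (edgeR unadjusted p 0.048, adjusted p 0.797, exact permutation p 0.1). USP34, a deubiquitinase of the AXIN proteins, held 164 ± 18.9 and 187 ± 14.2 CPM and PPP2CA, a phosphatase subunit, 178 ± 4.33 and 172 ± 14.7. All 12 nuclear effectors were tested, with a median of -0.059. CHD8 and BCL9L, cofactors of β-catenin, had log2 fold changes of -0.15 and 0.028. TCF7L1, which mostly represses target genes, had the lowest p, at 9.51 ± 0.995 and 12.6 ± 3.05 CPM (edgeR unadjusted p 0.072, adjusted p 0.797).

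**Figure D4:**
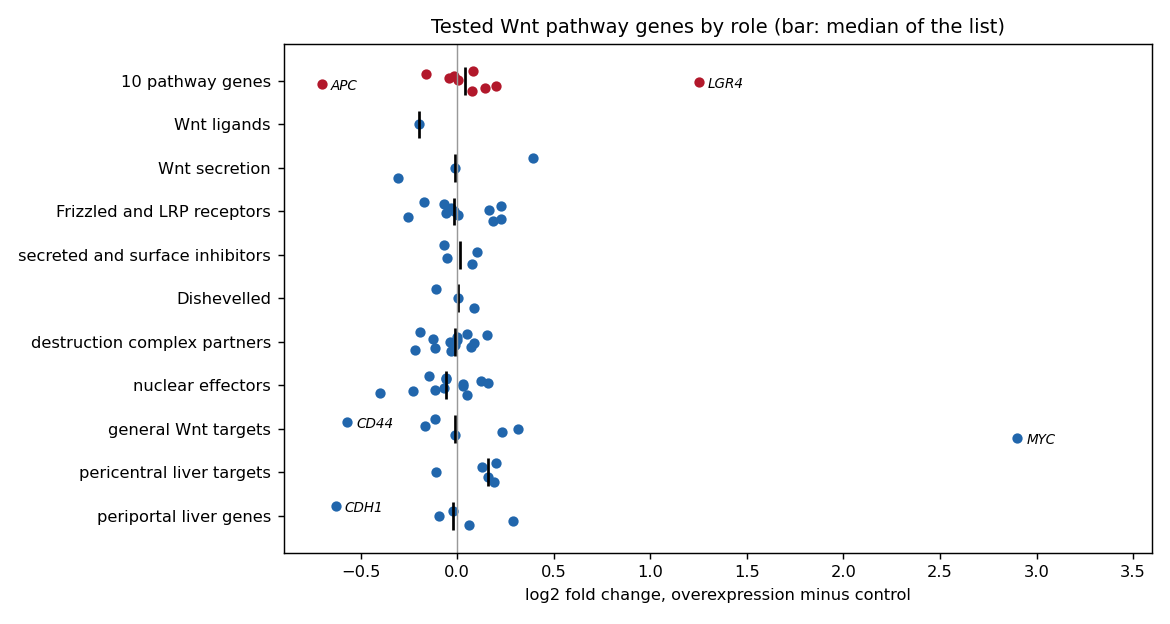
Fitted log2 fold change, overexpression minus control, of every tested gene by role, 10 pathway genes in red and the 64 others in blue, with a bar at the median of each list and a small vertical offset so that points can be seen. The labelled points are those beyond 0.5 in either direction, with LGR4 at 1.25, MYC at 2.90, APC at -0.70, CDH1 at -0.63 and CD44 at -0.57.

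7 of 8 general Wnt targets were tested. CCND1, a cyclin that drives entry into the cell cycle, held 318, 326 and 324 CPM with overexpression and 301, 301 and 373 in control, and JUN, a subunit of the AP-1 factor, 120 ± 6.03 and 130 ± 6.68 (SD, n = 3). The growth regulator MYC had the largest fitted value, a log2 fold change of 2.90 (edgeR unadjusted p 0.043, adjusted p 0.797). That value came from overexpression replicate 2 alone, with 38, 1092 and 40 counts with overexpression and 30, 34 and 67 in control, and without that library it was -0.34. LGR4 and MYC thus jumped in different sets of libraries, and overexpression replicate 2 was the one in both. Of the 9953 genes of at least 10 CPM, 3 were at least 2-fold higher in overexpression replicate 2 than in each other library (MYC, RP11-864I4.1 and TRAPPC5). MYC held 2.69, 77.9 and 3.23 CPM with overexpression and 2.77, 2.90 and 5.51 in control. It thus reached a mean of 10 CPM only through overexpression replicate 2. Genes as low elsewhere with a smaller jump were left out, so the count does not show how rare the pattern is.

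5 of 10 pericentral liver targets were tested, with a median log2 fold change of 0.16 and 4 above 0. TBX3, a transcription factor, held 64.1 ± 4.24 and 69.1 ± 2.75 CPM, OAT, ornithine aminotransferase, 69.5 ± 4.14 and 62.3 ± 9.43, and RGN, a calcium-binding lactonase, 20.5 ± 1.74 and 17.9 ± 2.27 (SD, n = 3). The classical pericentral gene CYP2E1 was under the filter with 4 to 17 counts per library, and CYP1A2 had 0 counts in all 6, although GLUL of the same zone was among the most abundant of the 10.

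5 of 8 periportal liver genes, those of the zone where the pathway is low, were tested. ASS1, a urea cycle enzyme, held 79.8 ± 2.34 and 76.6 ± 3.68 CPM (SD, n = 3). CDH1, E-cadherin, which binds β-catenin at cell contacts, was lower in every overexpression library than in every control library. It held 52.0, 63.7 and 60.4 CPM with overexpression and 95.6, 92.4 and 84.5 in control. On the log2 scale the difference was -0.63 (standard error 0.11), which with edgeR had an unadjusted p of 0.00031 and did not pass after adjustment over all genes (adjusted p 0.384, exact permutation p 0.1). With DESeq2 the value was -0.63 and the adjusted p 0.00247, so the call depended on the tool. The adjusted p over all alternatives ran from 0.00247 to 0.930, while the log2 fold change stayed between -0.69 and -0.51.

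**Figure D5:**
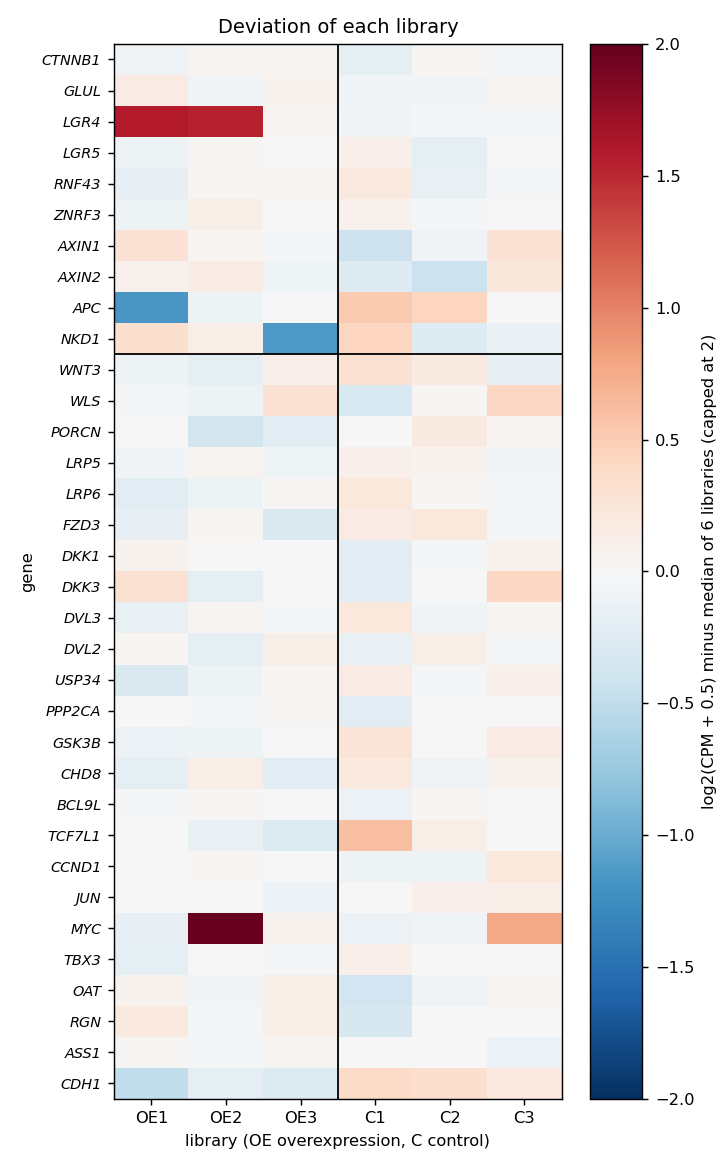
Deviation of each library from the median of the 6, as log2(CPM + 0.5), for the 10 genes (above the horizontal line) and 24 named pathway genes (below it), with the colour scale capped at 2 in both directions. The dark cells are LGR4 in OE1 and OE2, MYC in OE2, and APC in OE1 and NKD1 in OE3 on the low side, while CDH1 is low in all 3 overexpression libraries.

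The markers of other cell types gave no library that stood apart. 6 fibroblast and stellate markers summed to 22.8 to 26.0 CPM with overexpression and 23.3 to 26.1 in control. Of 5 endothelial markers, PECAM1 held nearly all of 54.4 to 55.6 and 46.9 to 59.2 CPM, and CDH5 had 0 counts in every library. 6 leukocyte markers, mostly LYZ, summed to 492 to 536 CPM with overexpression and 440 to 477 in control, and CD3E had at most 2 counts. These ranges of the leukocyte sum did not overlap. Among its markers only LYZ did not overlap, at 480 to 521 CPM with overexpression and 424 to 465 in control (edgeR adjusted p 0.797). Over all genes 6.40% did not overlap with overexpression higher. The part of these markers in the values above was not tested.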

How the data were processed

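The authors deposited 1 table that gives, for every gene, a read count and an FPKM per library. The submitters' processing notes name hg38 and TopHat2 2.0.9. The counting tool, annotation release and strand handling are not given in the sources used here. The deposited counts are not normalized, and the deposited FPKM values are those counts divided by library total and 1 length per gene, so they give no independent readout. GENCODE 29 held 98.5% of the table's gene IDs, 94.7% of those at the same position.

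Groups were taken from sample titles. Counts were fitted with edgeR 4.0.16 under R 4.3.3 (TMM, genes kept by filterByExpr at a minimum count of 10, quasi-likelihood test on group, two-sided, Benjamini-Hochberg adjustment over 15055 genes). The biological coefficient of variation was 16.1%. Exact permutation tests used log2(CPM + 0.5). Within groups, chi-square per degree of freedom between libraries was 11.0 to 22.6, so none was a copy. Same-numbered libraries did not deviate together (Pearson r across genes -0.036, -0.023 and -0.031). In simulated counts of this comparison over 15055 genes, 65 of 98 genes with a 2-fold change and 88 of 94 with a 4-fold change were recovered by edgeR, which called 12 of 14668 unchanged genes. The data themselves gave only 4 genes higher and 2 lower. With so few calls the adjustment asks for a smaller unadjusted p than in the simulation. These shares can therefore overstate what the test could recover here.

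The 10 genes, the lists and the tests were chosen with earlier results of these data known. Named genes were the 10, SOX5, and from each other list the 2 with the highest mean CPM and the 1 with the lowest unadjusted p. Genes outside the rule (LGR6, the R-spondins, CYP2E1, CYP1A2, the marker genes and those in the closing section) were named with their values seen. Alternatives were DESeq2 1.42.0, normalization by RLE or upper quartile, no filter beyond 1 count, a mean of at least 50 counts, a replicate block, limma-trend (limma 3.58.1) on log2(FPKM + 1) where 3 libraries reached 1 FPKM, GLUL with its pseudogenes, and leaving out each library. The lengths other than merged exons were added after the data were seen.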

Additional observations from a re-analysis of the deposited data

How the results depend on the processing

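None of the 10 genes was called under 12 of the 13 alternatives refitted for all of them. GLUL with its pseudogenes summed, an alternative for that gene alone, gave 0.083 on the log2 scale (edgeR adjusted p 0.853). Under the other, without overexpression replicate 3, 1 gene (LGR4) was called higher, so leaving out a library gave 0 to 1. That fit called 2 of all genes higher and 8 lower. The library it left out was the one in which LGR4 read like control. Across the 10 and 24 other named genes, 400 of 434 values kept direction and side of the threshold, 2 moved past it (LGR4 as above and CDH1 with DESeq2 at -0.63), 0 fell below it and 32 turned sign, none of them a called value. Over all genes, 4 were higher in the main result, 8 with DESeq2, 2 with the replicate block and 1 to 7 when 1 library was left out (7 without overexpression replicate 2, 1 without control replicate 3). 2 were lower, 20 with DESeq2 and 2 to 9 when 1 library was left out (9 without overexpression replicate 2). Of the other pathway genes DESeq2 called 1 lower, CDH1. The median of the 10 was 0.041 and became 0.099 with limma on FPKM, where APC, AXIN2 and NKD1 were below the minimum. It was 0.080 at a mean of at least 50 counts, without NKD1, and 0.0080 (without control replicate 2) to 0.070 (without overexpression replicate 3) when 1 library was left out, with 0.017 without overexpression replicate 2. The cause of these shifts was not tested beyond that.

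With upper-quartile normalization ZNRF3 turned to 0.00011, WLS to 0.0041 and CCND1 to 0.0067. With limma they were 0.0064, 0.022 and 0.022. Leaving out each library gave log2 fold changes of -0.016 to 0.34 for AXIN1, -0.073 to 0.074 for LGR5, -0.12 to 0.056 for RNF43, -0.072 to 0.035 for ZNRF3, -0.54 to 0.26 for NKD1, -0.17 to 0.20 for WLS, -0.0013 to 0.15 for DKK1, -0.21 to 0.15 for DKK3, -0.061 to 0.085 for DVL2, -0.016 to 0.089 for PPP2CA, -0.013 to 0.053 for BCL9L, -0.063 to 0.10 for CCND1 and -0.34 to 3.44 for MYC. For LGR4 the range was 1.01 to 1.61 with adjusted p from 0.00217 to 0.979, for APC -0.92 to -0.40 and for AXIN2 0.052 to 0.45.

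Same-numbered libraries did not deviate together, and the labels did not say whether they were prepared together. With the replicate block no gene of the 10 was called, LGR4 was 1.10 (edgeR adjusted p 0.862), APC -0.75, the median of the 10 0.043, and WLS turned to 0.0087. NKD1, AXIN2 and APC had the fewest counts of the 10, and the part of depth in their intervals was not tested.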

Other observations

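Periportal enzymes outside the naming rule also varied by library, and these were picked after their values were seen. ARG1, the last enzyme of the urea cycle, held 1090, 922 and 940 counts with overexpression and 791, 1068 and 186 in control. In CPM the highest control library was 5.94 times control replicate 3, a ratio that 14 of 9953 genes of at least 10 CPM reached in control. HAL, which breaks down histidine, held 926, 981 and 828 counts with overexpression and 949, 1127 and 398 in control, low in the same library. In that library 12 of the 9953 genes, ARG1 and HAL among them, stood at no more than 0.5 times the level of each other library. CD44, a surface receptor counted among Wnt targets, held 55, 50 and 20 counts with overexpression and 41, 53 and 64 in control, with overexpression replicate 3 lowest.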
